A study of Mus musculus with 9 samples.

Results

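The non-clustered protocadherin genes Pcdh1, Pcdh7, Pcdh8, Pcdh9, Pcdh10, Pcdh17, Pcdh18, Pcdh19 and Pcdh20 were examined in a list of open chromatin regions from wild-type mouse embryos. The 9 genes held 27 of the 17164 distinct regions of the list, 25 of them assigned to a member by gene symbol and 2 assigned to a neighbouring noncoding gene but overlapping the start of Pcdh7 or Pcdh10. The family was chosen from the widths of the regions themselves, because the widest regions of the list contain the starts of Pcdh17 and Pcdh7, so the widths of those regions are given as a description.

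The assay was ATAC-Seq, which marks accessible DNA by transposase insertion of adapters, on pharyngeal mesoderm and heart of embryos at embryonic day 8.75 with 6 somites. The series has 9 libraries, 3 each from wild-type (wt), Isl1-/- and Isl1Cre+/-/ Brg1fl/fl embryos; in the last group the Cre driven by Isl1 removes floxed Brg1 in cells that express Isl1 and in their descendants. The values examined are those of the wt embryos, as 1 list of regions found in all 3 of their libraries, and the mutant groups were not analysed here. The list gives positions and distances to the assigned transcription start site (TSS), with no height and no value per library, so replicate error and depth are unknown and no difference was tested.

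Protocadherins are transmembrane adhesion proteins of the cadherin superfamily that bind one another between and within cell membranes. The non-clustered genes lie singly in the genome, unlike the clustered ones that share constant exons, and they typically encode the whole extracellular part and the membrane segment in 1 large coding exon. Among the genes examined, Pcdh1, Pcdh7 and Pcdh9 belong to the delta1 group. Pcdh8, Pcdh10, Pcdh17, Pcdh18 and Pcdh19 belong to the delta2 group, and Pcdh20 is placed outside both groups. They are best known for cell sorting and axon growth, and Pcdh8 (paraxial protocadherin) for the shaping of somites in the early mesoderm.

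Of the markers of the dissected tissue, 7 of 9 cardiac and pharyngeal genes had a region by symbol, with 9 regions at Isl1 and 5 at Mef2c and none at Nkx2-5 or Tbx1. Markers of other tissues also had regions, at 4 of 6 neural, 3 of 5 endothelial, 3 of 4 endodermal and 2 of 6 somite genes. Over all coding genes the share with a region by symbol was 49.3%, so these small counts do not show which tissues were present. A region at a start was found for 5 cardiac and pharyngeal, 2 neural, 1 endothelial, 0 endodermal and 2 somite markers, beside 46.1% of coding genes. The part of those tissues in the regions of the protocadherin genes was not tested.

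The 200 bases before each start that lay in an open region are printed because 7 of the 8 share 1 sequence element. They were read from NCBIM37, the same build as mm9, in the direction of transcription, and end at the base before the start. Capitals mark the CCAAT box, a promoter element bound by the factor NF-Y, which reads ATTGG where it lies on the other strand. Pcdh1 is named only.
Pcdh7, chr5:58109060-58109259, plus strand: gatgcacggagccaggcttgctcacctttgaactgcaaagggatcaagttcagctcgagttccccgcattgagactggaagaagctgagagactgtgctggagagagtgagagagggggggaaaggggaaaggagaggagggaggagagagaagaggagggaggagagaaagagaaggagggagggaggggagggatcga
Pcdh9, chr14:94289899-94290098, minus strand: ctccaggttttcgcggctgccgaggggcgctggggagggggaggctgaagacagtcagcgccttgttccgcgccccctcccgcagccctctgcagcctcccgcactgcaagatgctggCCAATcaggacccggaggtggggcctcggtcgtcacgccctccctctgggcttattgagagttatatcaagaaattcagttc
Pcdh8, chr14:80171120-80171319, minus strand: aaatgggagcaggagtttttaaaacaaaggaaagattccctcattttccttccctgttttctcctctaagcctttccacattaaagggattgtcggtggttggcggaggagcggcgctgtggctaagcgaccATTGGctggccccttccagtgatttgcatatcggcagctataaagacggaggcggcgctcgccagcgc
Pcdh10, chr3:45182120-45182319, plus strand: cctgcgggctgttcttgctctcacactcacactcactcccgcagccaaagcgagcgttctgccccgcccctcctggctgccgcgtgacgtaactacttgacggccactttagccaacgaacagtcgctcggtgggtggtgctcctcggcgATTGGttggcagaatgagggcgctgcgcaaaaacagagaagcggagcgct
Pcdh17, chr14:84843170-84843369, plus strand: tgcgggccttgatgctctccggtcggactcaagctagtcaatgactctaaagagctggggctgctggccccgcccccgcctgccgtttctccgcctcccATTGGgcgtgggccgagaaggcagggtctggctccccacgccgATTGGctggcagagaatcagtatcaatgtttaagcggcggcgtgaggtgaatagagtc
Pcdh18, chr3:49561239-49561438, minus strand: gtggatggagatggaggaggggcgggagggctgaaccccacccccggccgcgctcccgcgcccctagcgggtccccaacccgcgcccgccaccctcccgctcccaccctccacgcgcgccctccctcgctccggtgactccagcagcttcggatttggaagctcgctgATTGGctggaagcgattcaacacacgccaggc
Pcdh19, chrX:130223533-130223732, minus strand: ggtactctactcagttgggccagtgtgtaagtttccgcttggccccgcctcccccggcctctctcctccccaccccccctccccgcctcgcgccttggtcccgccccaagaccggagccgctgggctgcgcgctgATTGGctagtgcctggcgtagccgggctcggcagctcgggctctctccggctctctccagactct
Pcdh20, chr14:88871204-88871403, minus strand: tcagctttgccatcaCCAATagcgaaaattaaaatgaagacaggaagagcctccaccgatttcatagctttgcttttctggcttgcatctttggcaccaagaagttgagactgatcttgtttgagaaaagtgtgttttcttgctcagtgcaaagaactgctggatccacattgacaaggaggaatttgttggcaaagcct

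A CCAAT box stood in the shown sequence of every one of these genes but Pcdh7. It began 82 bases before the start in Pcdh9, 68 in Pcdh8, 50 in Pcdh10, 32 in Pcdh18 and 65 in Pcdh19, and in Pcdh17 there were 2 of them, at 101 and 58 bases. The box of Pcdh20 lay farther off, at 185 bases. In the RefSeq promoter table (assembly GRCm38.p6, 250 bases before to 50 after the start), 8 of the 9 members had an entry, and CCAAT on either strand stood in 7 of these 8 and in 41.1% of 27025 genes. The longer form AGCCAAT, searched after the members' sequences had been seen, stood in Pcdh8, Pcdh17, Pcdh18 and Pcdh19 and in 8.99% of all genes. A match to these letters is a description of the sequence and does not show binding.

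Other promoter elements were shared by fewer members. The GC box GGGCGG was found on either strand in Pcdh10, Pcdh17, Pcdh18 and Pcdh19, beside 38.2% of all genes. The TATA box TATAAA was found only in Pcdh8 among the 8 members with an entry, beside 15.7% of all genes, and the core TGACGT of the cAMP response element only in Pcdh10, beside 8.37%. Neither the E-box CAGCTG, present in 18.3% of all genes, nor TTCAGCACC, the left part of the REST element, present in 0.433%, was found in these windows of the members. The promoter sequence of Pcdh20 was also the poorest in CpG, with 2 CpG in 200 bases, where that of Pcdh18 held 20, of Pcdh10 18, of Pcdh19 16, of Pcdh17 14, of Pcdh9 13 and of Pcdh8 11. Pcdh7 held 4.

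By gene symbol, 8 of the 9 members had at least 1 region, beside 49.3% of 21031 coding genes, and Pcdh10 had none. With the regions that overlap a start, 8 of 9 members had a region at a start, beside 46.1% of coding genes, where a region counted as at a start when it overlapped an annotated coding start or its midpoint was within 1 kb of the assigned TSS. Pcdh1 was the member without one. Of the 8 members with a region by symbol, Pcdh9 (7 regions), Pcdh17, Pcdh18 and Pcdh20 (4 each) had 4 or more, as did 5.12% of the 10364 coding genes with a region. Pcdh1 and Pcdh19 had 2 each, and Pcdh7 and Pcdh8 had 1 each by symbol.

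**Figure D1:**
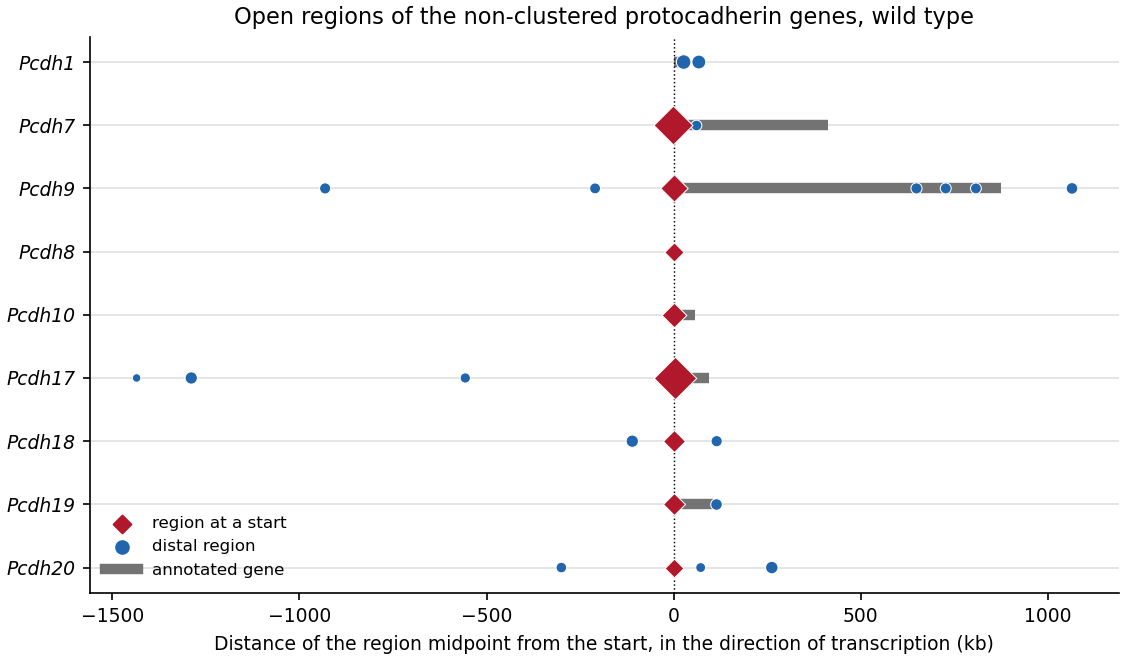
Position of the 27 open regions of the 9 genes, as the distance of the region midpoint from the start in kb along the direction of transcription; diamonds are regions at a start, circles are distal regions, symbol area follows region width, and grey bars are the annotated genes. Distal regions of Pcdh9 and Pcdh17 lie farthest out, up to 1434746 bp from the start of Pcdh17, and Pcdh1 has no diamond.

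Among the delta1 genes, Pcdh7 held the third widest region of the list. It spanned 5254 bp at chr5:58105093-58110346, around the start of Pcdh7 at position 58109260 on the plus strand, and was assigned in the list to the noncoding gene 4932441J04Rik. This noncoding gene starts 102 bp away on the other strand. The region reached 4167 bp upstream and 1086 bp downstream of the Pcdh7 start, so that 20.7% of it lay over the gene. A further region of 783 bp was intronic, 60296 bp downstream of the assigned TSS, and a region of 1055 bp near the 3′ end of the gene body was assigned to 4930459L07Rik.

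Pcdh9, a gene of 873221 bp, held 7 regions, the most of the family. The region at its start was 2586 bp wide at chr14:94288683-94291268, rank 289 of the list, with its midpoint 77 bp upstream of the TSS to which it was assigned. That TSS is the RefSeq start at position 94289898, 1947 bp upstream of the first coding start of Pcdh9 in GENCODE, which lay outside the region. Of the other 6 regions, 3 were intronic, at 646805, 724935 and 805493 bp downstream of the TSS, 1 lay beyond the gene at 1061888 bp, and 2 lay upstream at 210105 and 931291 bp. These 6 regions were between 816 and 942 bp wide, all narrower than the median of the list, 1123 bp.

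Pcdh1, an adhesion protein known from airway epithelium, differed from the rest in having regions only away from its start. They were 1341 and 1469 bp wide, 64809 and 24240 bp downstream of the assigned TSS, and the nearer overlapped the 3′ end of the gene by 342 bp. Its sequence at the start was not poor in CpG, with up to 9.59 CpG per 100 bp within 500 bp of a start, above 88.6% of 22359 coding genes, and 4.995 at the RefSeq TSS to which its regions were assigned.

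Among the delta2 genes, Pcdh17, a protein of axon extension, held the widest region of the list, 6230 bp at chr14:84842354-84848583. The gene starts at position 84843370 on the plus strand, so the region reached 1016 bp upstream and 5213 bp downstream, and 83.7% of it lay over the gene. Its next regions were 556850, 1288580 and 1434746 bp upstream, with widths of 730, 1051 and 504 bp. No other region of Pcdh17 lay within the gene body of 93498 bp.

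Pcdh10 (OL-protocadherin), which binds the WAVE complex through Nckap1, had its only region at the start, 2110 bp at chr3:45180697-45182806, assigned to the noncoding gene 2610316D01Rik that starts 138 bp away on the other strand. It reached 1623 bp upstream and 486 bp downstream. A second region assigned to that noncoding gene, 1154 bp wide, lay 2500 bp from the start of Pcdh10 and overlapped no member start.

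Pcdh18 had a region of 1685 bp at its start, at chr3:49560417-49562101, which was centred 21 bp from the TSS. It had 1 region 114740 bp downstream and a pair upstream, at 108928 and 110736 bp, of 876, 783 and 1052 bp. Pcdh19, the X-linked member whose mutation causes epilepsy and whose protein associates with N-cadherin, had 1669 bp at its start, at chrX:130223047-130224715, and 931 bp at 113186 bp downstream. The Pcdh8 gene, only 4533 bp long, had 1 region of 1294 bp, at chr14:80170465-80171758, centred 8 bp from the TSS.

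Pcdh20 had a region of 1226 bp at chr14:88870292-88871517, the narrowest of the start regions of the family, 299 bp downstream of the TSS. Its distal regions lay 72042 and 262020 bp downstream and 300224 bp upstream, with widths of 683, 1078 and 783 bp.

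The widths at the start ran from the middle to the top of the distribution of the list. The 9275 regions at a coding start had a median of 1297 bp, with quartiles of 1087 and 1619 bp. Pcdh20 and Pcdh8 lay below that median, Pcdh19 and Pcdh18 just above the upper quartile, and Pcdh10, Pcdh9, Pcdh7 and Pcdh17 at 2110 bp or more. A width of 2000 bp or more was thus found for 4 of the 8 members with a start region, beside 10.4% of all start regions, and 2 of the 4 are those on which the family was chosen. The median over the 8 members was 1898 bp, and 1677 bp over the 6 without Pcdh17 and Pcdh7.

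Next to Pcdh17 and Pcdh7 in width stood a region assigned to Atp6v1h, 5416 bp, which overlapped no coding start, and of whose 31-mers 89.8% occur elsewhere in the genome, where reads cannot be placed with certainty. The same share was 2.45% for the Pcdh17 region and 0% for the Pcdh7 region. Some distal regions of members had higher shares. These were the Pcdh20 regions 300224 bp upstream (46.6%) and 262020 bp downstream (16.8%) and the Pcdh9 region 931291 bp upstream (34.8%). No remaining member region exceeded 7.05%. The next widest regions at a coding start were those of Vcan (4997 bp), Spry2 (4983 bp), Gpc6 (4566 bp) and Sp8 (4492 bp), the first a matrix proteoglycan and the second an inhibitor of growth factor signalling. Those of Sox12, Adamts1, Slit2 and Peg3 were between 4240 and 4348 bp.

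**Figure D2:**
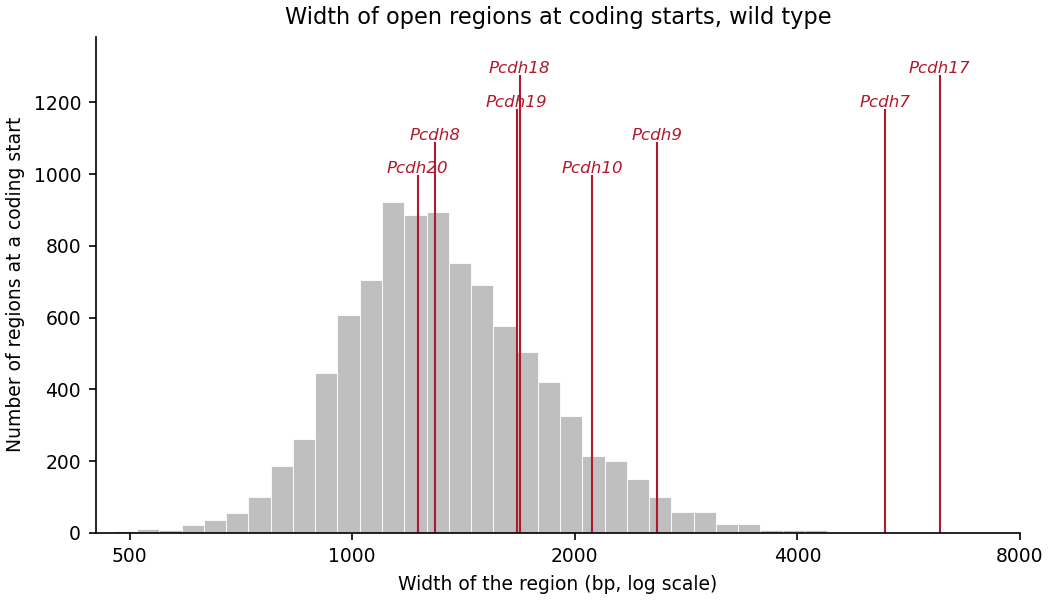
Number of regions at coding starts by width (bp, log2-spaced bins on a log axis; grey bars, 9275 regions), with a red line at the width of each member's start region. Pcdh20 and Pcdh8 sit near the middle of the distribution, and Pcdh7 (5254 bp) and Pcdh17 (6230 bp) at its right end.

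The start regions also differed in the side of the start to which they reached. Over the 8110 regions whose coding starts lie on 1 strand, a median of 55.1% of the region lay downstream of the start, and 59.7% over the 856 of them of 2000 bp or more. The members ranged from 20.7% in Pcdh7, 23.0% in Pcdh10 and 29.1% in Pcdh19, over 47.0% in Pcdh9, 48.8% in Pcdh18 and 50.6% in Pcdh8, to 74.4% in Pcdh20 and 83.7% in Pcdh17. The lowest values were those of the 3 members with a start on the opposite strand within 2000 bp of their first start, which 18.0% of 22359 coding genes have. In all 3 that start belonged to a long intergenic noncoding RNA (lincRNA); it lay inside the open region in Pcdh7 and Pcdh10, whereas the start of Gm16795 lay 1213 bp inside Pcdh19 and outside its region.

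CpG-rich sequence ran farther than the open region at most members. CpG-rich bases were those in 200-bp windows with 50% GC or more and an observed over expected CpG of 0.6 or more, counted within 5 kb of the start. Pcdh7 held 5845 such bases, Pcdh10 5530, Pcdh17 5062, Pcdh19 4690 and Pcdh8 4505, beside a median of 973 over 22359 coding genes. Pcdh1 held 3033, Pcdh9 1954, Pcdh18 1641 and Pcdh20 642.

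The share of these bases inside open regions was highest in Pcdh17 among the members, where all 5062 bases lay in the open region. It was 83.5% in Pcdh9, 73.6% in Pcdh7, 61.99% in Pcdh20 and 54.1% in Pcdh18. In Pcdh10 the share was 43.9%, in Pcdh19 30.0% and in Pcdh8 28.3%, of between 4505 and 5530 bases. The 1427 coding genes with 2000 or more CpG-rich bases and a start in a region had a median share of 59.2%, with quartiles of 43.4% and 77.4%. Over all 9010 genes with the first start in a region the median was 81.8% and the upper quartile 100%. Downstream of the start, the share was 100% in Pcdh17, 67.6% in Pcdh9, 61.99% in Pcdh20, 41.5% in Pcdh18, 41.3% in Pcdh7, 20.6% in Pcdh8, 14.2% in Pcdh19 and 11.6% in Pcdh10. The median downstream share over the genes with 2000 or more CpG-rich bases was 58.8%, with quartiles of 36.5% and 85.0%. These shares follow in part from the region widths by which Pcdh17 and Pcdh7 were chosen.

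Large coding exons lay mostly outside the open regions. The longest coding exon of Pcdh17, 2559 bp at chr14:84845902-84848460, begins 2532 bp after the start and lay wholly within the open region. That of Pcdh8 (2625 bp) was richer in CpG, with 9.52 per 100 bp beside 6.49 in Pcdh17, and 17.7% of it was covered. In Pcdh18 14.9% of the exon was covered, in Pcdh7 0.0945%, and in Pcdh9, Pcdh10, Pcdh19 and Pcdh20 none. A cover of 50% or more was found for 1 of the 8 members with a start in a region, beside 3.39% of the 59 coding genes, these members included, with such an exon of 2000 bp or more within 5 kb of a start in a region. The other gene was BC068157, named after its value was seen, with an exon of 2196 bp covered throughout. Over the 59 genes the median cover was 0% and the upper quartile 16.3%, so a low cover was not particular to the members. By the number of coding bases in a start region, Pcdh17 ranked 1 of 9275, Pcdh8 474, Pcdh18 747 and Pcdh20 2832, beside a median of 63 bp over all start regions. The region of Pcdh7 held 3 coding bases, and those of Pcdh9, Pcdh10 and Pcdh19 held 0. The exon cover and the rank of Pcdh17 follow in part from the region width by which it was chosen, and are a description only.

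**Figure D3:**
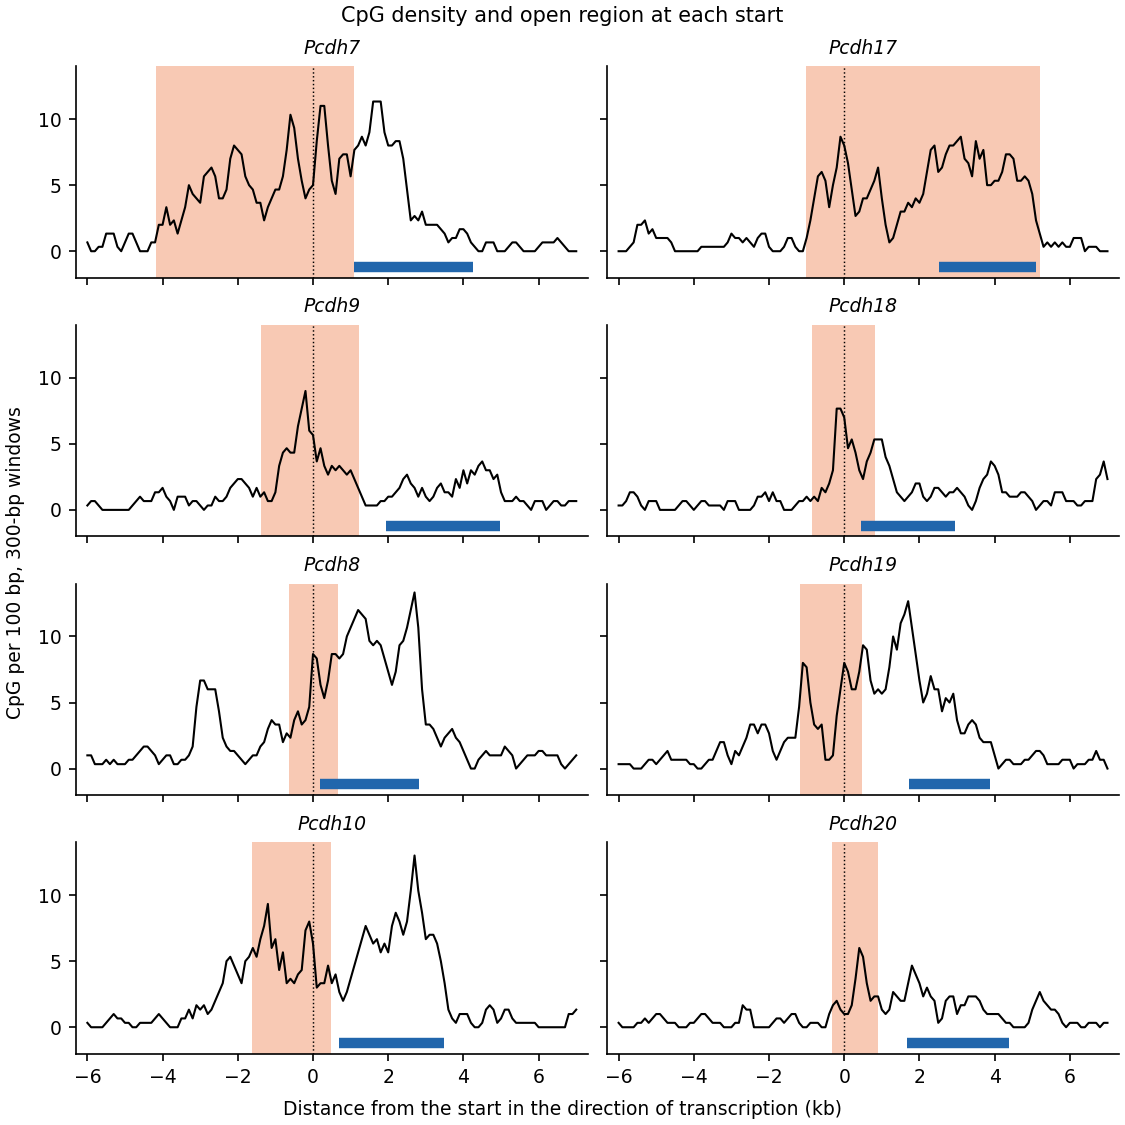
CpG per 100 bp in 300-bp windows (line) against the distance from the start in kb along the direction of transcription, with the open region at the start shaded and the longest coding exon as a blue bar under the line. The shading covers the CpG-rich stretch and the exon in Pcdh17, while in Pcdh8, Pcdh10 and Pcdh19 the CpG-rich exon lies mostly or wholly outside it.

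CpG at the start did not by itself separate the members with a region from the one without. Within 500 bp of the start, the density was 4 CpG per 100 bp or more in 7 members, of which 6 had a region at a start, beside 70.9% of the 12084 coding genes of that density. Pcdh1 was the seventh, at 9.59 as the highest over its 4 GENCODE starts. Pcdh9 (2.70 at its GENCODE starts) and Pcdh20 (2.30) lay between 2 and 3, and both had a region at a start, beside 24.9% of the 1710 coding genes of that density. The Pcdh9 region, however, contained its RefSeq start, with 5.19 CpG per 100 bp, and no GENCODE coding start of the gene. Pcdh9 is therefore not an example of an open start that is poor in CpG. At the RefSeq start that the list used, Pcdh1 had 4.995 CpG per 100 bp, below Pcdh7 (6.59), Pcdh8 (5.89) and Pcdh9 (5.19). Pcdh17 had the same value, and Pcdh19 (4.795), Pcdh18 (4.496) and Pcdh20 (2.298) lay lower, although each of them had a region at a start. Across 9002 start regions of all genes, width and CpG-rich bases within 5 kb had a Spearman correlation of 0.342, a description over regions that share libraries, depth and base composition.

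Away from the starts, the family held 19 regions, 6 of them of Pcdh9, 3 each of Pcdh17, Pcdh18 and Pcdh20, 2 of Pcdh1 and 1 each of Pcdh7 and Pcdh19. They lay far out, at a median of 262020 bp from the assigned TSS, with quartiles of 109832 and 765214 bp, beside a median of 51577 bp over the 7716 other regions of the list. Beyond 500 kb lay 8 of the 19, all of Pcdh9 and Pcdh17, and 4.69% of all other regions. The gaps from Pcdh9 and Pcdh17 to their coding neighbours sum to 5.11 and 6.54 Mb, beside a median of 0.0492 Mb over all coding genes. The part of these gaps in the distances was not tested. By place, 15 were intergenic and 4 intronic, or 78.9% and 21.1%, beside 58.7% and 36.2% of all other regions. Upstream of the start lay 8 of the 19, beside 45.4% of all.

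These distal regions were narrow and poor in CpG and GC. Their median width was 854 bp, beside 942 bp over all other regions, and 17 of 19 were under the median width of the list, as were 74.6% of all other regions. The median CpG density was 0.732 per 100 bp, beside 1.30 over all other regions, and the median GC content was 39.8% beside 47.2%. The 2 regions of Pcdh1, with 59.2% and 60.2% GC and 5.17 and 3.28 CpG per 100 bp, stood above the rest, and without them the highest values of the remaining 17 were 48.9% GC and 1.92 CpG per 100 bp. The start regions of the members ranged from 2.85 to 5.95 CpG per 100 bp, and the 2 distal regions of Pcdh1 fell within that range. Outside Pcdh1 the start and distal regions of the family did not overlap in CpG density. In the whole list, the quartile range at coding starts also lay above that of all other regions, although the full ranges overlapped. A separation of this kind is therefore not particular to the family.

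**Figure D4:**
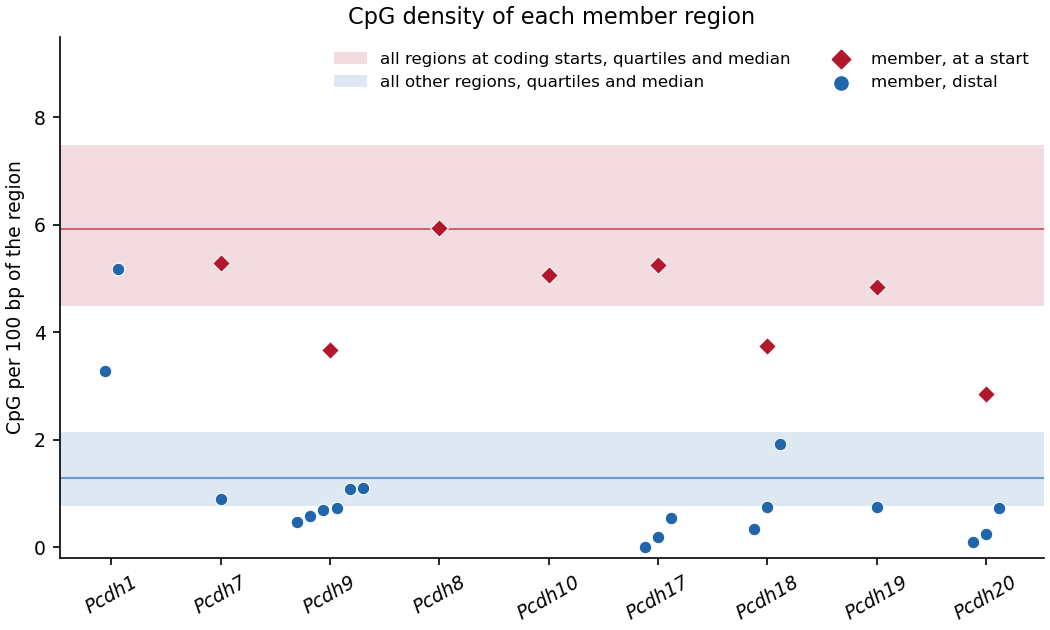
CpG per 100 bp of each member region by gene (diamonds, at a start; circles, distal), over bands that give the quartiles and lines that give the medians of all regions at coding starts (red) and of all other regions (blue). Start regions sit between 2.85 and 5.95, distal regions at 1.92 or below except those of Pcdh1.

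The sequences at the centre of 2 distal regions are given as the ends of that range outside Pcdh1, with CpG in capitals. The farthest region of Pcdh17, chr14:83408373-83408876, 1434746 bp upstream, held 0 CpG in its 504 bp. The region of Pcdh18 at chr3:49669775-49670557, 108928 bp upstream, held 15 CpG in its 783 bp. Each line is the 200 bases at the region's midpoint (NCBIM37), in the direction of the gene's transcription.
Pcdh17, chr14:83408525-83408724, plus strand: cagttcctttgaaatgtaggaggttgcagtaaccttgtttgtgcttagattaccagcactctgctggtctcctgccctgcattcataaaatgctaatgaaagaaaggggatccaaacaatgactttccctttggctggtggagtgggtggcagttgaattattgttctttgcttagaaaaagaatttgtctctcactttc
Pcdh18, chr3:49670067-49670266, minus strand: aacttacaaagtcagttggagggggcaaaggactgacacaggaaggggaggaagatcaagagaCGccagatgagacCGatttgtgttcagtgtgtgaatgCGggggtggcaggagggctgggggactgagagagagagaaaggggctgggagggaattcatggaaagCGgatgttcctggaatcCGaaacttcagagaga

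Short motifs of factors active in embryonic mesoderm were searched on both strands of the whole distal regions. GGAATG, the core of the TEAD element, stood in 12 of the 19 member regions, beside 49.6% of all other regions. The GATA element AGATAA stood in 9, beside 42.7%, the SOX element ACAATG in 9, beside 44.6%, and the homeodomain core TAATTA in 6, beside 25.9%. The E-box CAGCTG stood in 8, beside 48.8%, the CTCF core AGGGGGC in 3, beside 19.9%, and the forkhead element TGTTTAC in 1, beside 15.8%. In 300 bp at the midpoint the E-box stood in 26.3% of member regions, beside 23.8% of all others, so the direction of its difference turned, and the GATA element in 15.8% beside 14.98%. All 3 distal regions of Pcdh17 held the GATA and the SOX letters, but those of Pcdh18 held no SOX letters and that of Pcdh7 held none of the motifs. The share of all other regions that hold both was not counted. The letters of a motif are short, regions differ in width, and no match was read as a bound site.

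Most members lie in long stretches without another coding gene. At least 1 Mb on each side separated Pcdh7, Pcdh9, Pcdh10 and Pcdh17 from the neighbouring coding genes, as for 0.157% of 22359 coding genes (35 genes, these 4 included). Pcdh7 stood 3.60 Mb from Stim2 and 3.68 Mb from G6pd2, and Pcdh17 4.42 Mb from Olfm4 and 2.12 Mb from Diap3. Pcdh9 had gaps of 3.12 and 1.99 Mb, and Pcdh10 of 3.62 and 1.01 Mb, the last to Pabpc4l. Pcdh18, Pcdh19 and Pcdh20 had 1 gap over 1 Mb each, of 1.13, 3.12 and 1.43 Mb. Pcdh8 and Pcdh1 had summed gaps of 0.194 and 0.221 Mb.

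The number of regions per length in these stretches lay within the quartiles of all coding genes, whose stretches are mostly far shorter. The stretches contained 15 regions around Pcdh17, 12 around Pcdh7, 11 around Pcdh9 and 6 each around Pcdh10, Pcdh18 and Pcdh20. Per Mb, the values ranged from 0.886 for Pcdh19 to 12.1 for Pcdh1, with a median of 2.26, beside a median of 3.03 and quartiles of 0 and 13.1 over all coding genes. The summed gap to the coding neighbours had a median of 3.28 Mb in the members and 0.0492 Mb over all coding genes. Stretches of such unlike length cannot show whether the long ones hold a usual number of regions. Of the 15 regions around Pcdh17, 4 were assigned to it, 4 to Olfm4 and the remaining 7 to 9630013A20Rik and 4930529K09Rik. Of the 12 around Pcdh7, 2 were member regions, and G6pd2 was the assigned gene of 1. Which gene a region acts on was not tested.

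**Figure D5:**
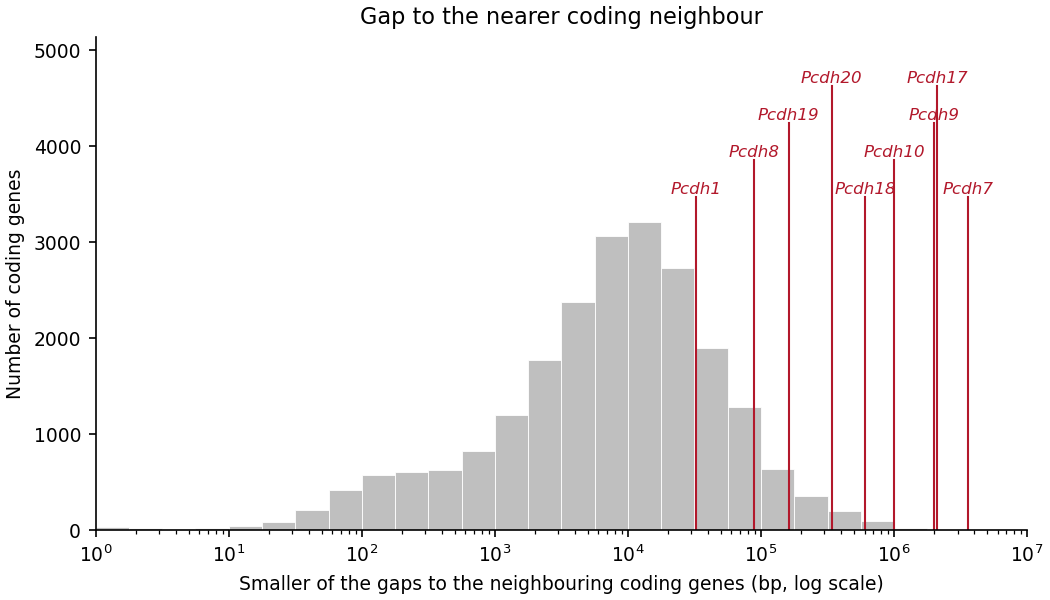
Number of coding genes by the smaller of the gaps to their neighbouring coding genes (bp, log axis; grey bars, 22359 genes), with a red line at each member. Pcdh10, Pcdh9, Pcdh17 and Pcdh7 lie at 1 Mb or more, and Pcdh1 has the smallest gap of the family.

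Other genes of the superfamily, without the clustered protocadherins, are given for comparison. Of 52 such genes, 31 had a region by symbol (59.6%, beside 49.3% of coding genes) and 20 had a region at a start (38.5%, beside 46.1%). A start region of 2000 bp or more was found in 9 of these 20, beside 10.4% of all start regions. Of the 31, 5 had 4 or more regions, beside 5.12% of the coding genes with a region. Wide start regions were thus not particular to the members. Of the other non-clustered protocadherins, Pcdh11x had 2 regions, with 1170 bp at its start, Pcdh15 had 1 of 1665 bp, and Pcdh12, an endothelial protein, had none. Of the classical type II cadherins, 11 of 13 had a region, led by Cdh11 and Cdh20 with 8 each, whose start regions were 3640 and 2873 bp wide. Of the type I cadherins, 2 of 5 did, Cdh2 (N-cadherin) with 4 regions and 2482 bp at the start, and Cdh4 with 2 regions. Among the Fat, Dachsous and Celsr genes 7 of 9 had a region, Fat1 and Fat3 with 4 each, and 2 had one at a start. Of 9 desmosomal genes 4 had a region, and of 13 remaining cadherins 5.

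Most intracellular partners had a region. Of 18 genes of the catenins, the WAVE complex and other partners of cadherins and protocadherins, 16 had a region, in each case also at a start. The shares over all coding genes were 49.3% with a region by symbol and 46.1% with one at a start. Nckap1, the WAVE subunit bound by delta2 protocadherins, had 1 region, of 1970 bp. Ctnna3 had 4 regions and Ctnna2 and Ctnnd2 had 3 each. Ctnnb1 (beta-catenin) had none. Absence from a list that requires a region in each of 3 libraries does not show closed chromatin.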

How the data were processed

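The authors prepared 3 ATAC-Seq libraries per genotype from E8.75 pharyngeal mesoderm and heart, and the labelled genotype defined the groups. The deposited list of the wild-type group holds region start and end in bp, the signed distance to the assigned TSS in bp, a RefSeq transcript and a gene symbol. As the study's methods describe, the authors mapped reads to mm9 with bowtie2, filtered them with samtools, removed duplicates with Picard 1.136, called peaks per library with MACS14 without a model and with a fixed shift, removed ENCODE blacklist regions and kept regions common to replicates with bedtools 2.15, by an overlap of at least 1 bp. The tool that assigned genes to these regions is not given in the sources used here. The fixed shift extends tags and no Tn5 offset is stated, so edges are not insertion sites. Width also rises with depth, which is unknown, and a common region keeps the edges found in 1 library.

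The 17432 rows were reduced to 17164 distinct regions, with width as end minus start plus 1. No column of values was left unmapped (0 columns). The RefSeq gene table (GRCm38.p6) gave gene names, and 16578 regions matched it by accession. Background shares by symbol used its 21031 coding genes with a curated transcript. Sequence, gene structure and gaps used NCBIM37 with GENCODE vM1 (22359 coding genes). The start of a member was its first coding start in GENCODE, except for Pcdh9, where it was the RefSeq start implied by the deposited distance. CpG at a start was the highest over its GENCODE starts, within 500 bp of each. A 31-mer counted as repeated if both strands of the genome together held it at least 2 times. The genes named were the 9 members, the other non-clustered protocadherins, genes assigned to the 10 widest regions with a coding start or neighbouring a member region, and at most 4 genes with the most regions from each other list, beside single genes at a limit of a list. Members and lists were chosen with earlier results of these data known. With 1 list and no value per library, no test was made. Alternatives were other ways of counting and assigning regions, other windows, neighbours of any gene type and motifs in 300 bp at the midpoint. Interval, composition and motif functions were tested on simulated data. Python 3.11.15, numpy 2.4.6, pandas 2.3.3, scipy 1.17.1, pysam 0.24.0 and matplotlib 3.10.9 were used.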

Additional observations from a re-analysis of the deposited data

How the results depend on the processing

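No paired analysis was possible because the values are 1 list common to the 3 wild-type libraries, and for the same reason no library could be left out. Of 27 member regions, 10 were at least as wide as the median of the list, and assignment to the nearest coding start gave 34. Among regions with under 10% repeated 31-mers, Pcdh7 moved from rank 3 to 2. The median CpG density at the members' starts was 6.59 per 100 bp within 250 bp, beside 4.995 within 500 bp. With all genes of the GENCODE annotation as neighbours, 1 member (Pcdh17) instead of 4 kept 1 Mb on each side, although the distances in the list place a start of the noncoding gene 9630013A20Rik within Pcdh17. Counting overlapped starts in place of symbols left 20 of 31 other cadherin genes. In 300 bp at the midpoint, the E-box share of member distal regions was 2.47 percentage points above that of all other regions, where in whole regions the difference was -6.71 percentage points; the cause was not tested. The same difference went from 4.71 to 0.81 points for GATA, from 2.72 to 7.01 for SOX and from -10.58 to -5.66 for forkhead. Chosen after the data were seen, leaving out Pcdh17 and Pcdh7 gave a median start width of 1677 bp, and leaving out Pcdh1 a median distal distance of 300224 bp. The remaining alternatives for the counts, widths and distances stayed within 1.5 times of the values reported. Depth, region height and the spread between libraries are unknown here and limit every value.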
